A study of Homo sapiens with 2 samples.

Results

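The 10 genes described here encode the main folding chaperones of the cytosol and of the mitochondrial matrix. They comprise the HSP70 genes HSPA1A, HSPA1B and HSPA8, the HSP110-type genes HSPA4, HSPA4L and HSPH1, the HSP90 genes HSP90AA1 and HSP90AB1, and the mitochondrial chaperonin genes HSPD1 and HSPE1. They were chosen by symbol and all 10 were found among the 63677 Ensembl gene IDs of the deposited count tables. The cells were MDA-MB-231, an established human triple-negative breast cancer line of mesenchymal appearance. The control group and the group given Carpesium cernuum extract (CCE), a plant extract, had 1 library each. The labels state 1 µg/mL for 24 h on both samples, and the sources used here do not state what the control cells were given.

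HSP70 proteins bind short hydrophobic stretches of unfolded clients and release them on ATP binding. HSP110 proteins act as nucleotide exchange factors in that cycle, and HSP90 dimers take over late-folding clients such as kinases and steroid receptors. HSPD1 (HSP60) forms a folding chamber in the mitochondrion that HSPE1 (HSP10) closes as a lid. Many of these genes are activated in heat and proteotoxic stress by heat shock factor 1 (HSF1), which binds heat shock elements, arrays of the unit nGAAn in alternating orientation. HSPA1A and HSPA1B are the classical stress-inducible HSP70 genes, whereas HSPA8 and HSP90AB1 are regarded as the constitutive forms.

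Genes held 5633569 counts in control cells and 34884501 with CCE, a depth ratio of 6.19, so the control library set the precision. Values are counts per 1000000 gene counts (CPM), and each ratio carries an exact 95% Clopper-Pearson counting interval. Each group being a single library, no replicate check and no test were possible, so intervals cover counting error only and the ratios describe these 2 libraries. Records with more than 1 alignment made up 11.6% of the control records and 17.3% of the CCE records, and their part in the ratios below was not tested. Of 5 genes taken as markers of MDA-MB-231, all were measured, with summed levels of 6300 CPM in control cells and 3941 CPM with CCE. VIM, AXL and CAV1 were at least 1.5-fold lower in the CCE library. CD44 (757 and 624 CPM) and MSN (904 and 1005 CPM) were not called, and only MSN had a log2 ratio above 0. Of the luminal markers, ESR1 had 0 counts in both libraries, PGR 0 and 6, and CDH1 0 and 1. KRT8, EPCAM and ERBB2 were detected, KRT8 at 172.5 and 130.3 CPM, ERBB2 at 54.7 and 52.5 CPM, and EPCAM at 9.94 and 7.60 CPM. The part of the marker differences in the chaperone ratios was not tested.

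Matches to the heat shock element near the start sites are shown first, since HSF1 binds such elements. The 10 genes have 16 promoter entries of 300 bases in RefSeq (250 bases before to 50 after an annotated start), each found once by exact match in GRCh37. A shorter and a longer motif were searched on both strands. Only exact letters and spacing counted as a match, so imperfect elements were not found. The 2-unit motif was GAANNTTC or TTCNNGAA, and the 3-unit motif GAANNTTCNNGAA or TTCNNGAANNTTC, which contains the 2-unit motif. Capitals mark the matched bases.
HSP90AA1, chr14:102553427-102553484, minus strand: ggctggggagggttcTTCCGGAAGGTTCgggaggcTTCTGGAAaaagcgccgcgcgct
HSP90AB1, chr6:44215500-44215595, plus strand: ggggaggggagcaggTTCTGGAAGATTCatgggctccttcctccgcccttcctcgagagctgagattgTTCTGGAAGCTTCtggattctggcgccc
HSPA8 distal, chr11:122933054-122933082, minus strand: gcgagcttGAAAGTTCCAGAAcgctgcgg
HSPA8 proximal, chr11:122932879-122932907, minus strand: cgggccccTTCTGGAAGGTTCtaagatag
HSPD1, chr2:198364786-198364814, minus strand: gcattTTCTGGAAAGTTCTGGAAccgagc
HSPA4L, chr4:128703292-128703329, plus strand: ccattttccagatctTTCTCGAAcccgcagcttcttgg
HSPA1A, chr6:31783199-31783236, plus strand: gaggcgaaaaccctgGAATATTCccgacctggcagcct
HSPA1B, chr6:31795395-31795432, plus strand: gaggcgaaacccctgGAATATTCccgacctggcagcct

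The 3-unit motif was present for 4 of the 10 genes (HSPA8, HSP90AA1, HSP90AB1 and HSPD1), beside 0.608% of all 27305 genes with RefSeq windows. By window, that is 4 of 16 beside 0.490% of all 35093 windows of this length. The 2-unit motif was present for 7 of the 10 genes beside 16.2% of all genes, and in 7 of 16 windows beside 13.5% of all windows. In HSP90AA1 the matched stretch began 88 bases before the start, and in HSP90AB1 it began 165 bases before the start and held a pair of 3-unit matches. HSPA8 held 1 such match beginning 230 bases and 1 beginning 55 bases before its start. In HSPA1A and HSPA1B a single 2-unit match, GAATATTC, began 106 and 105 bases before the start, with a TATA box (TATAAA) 30 and 29 bases before it. The windows of HSPA8 and HSPD1 lie in exons of annotated transcripts, those of HSP90AA1, HSP90AB1 and HSPA4L in introns of longer transcripts, and those of HSPA1A and HSPA1B outside annotated genes. HSPA4, HSPH1 and HSPE1 held neither motif in these windows. The HSPE1 window begins at chr2:198364853, and the HSPD1 stretch shown above, which ends at chr2:198364814, lies just outside it. A match is a description of the letters and says nothing of binding in these cells.

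By counts, all 10 chaperone genes had a ratio above 1 in the CCE library, from 1.04-fold for HSPA1B to 1.68-fold for HSP90AA1. Over all 14423 measured genes (mean of at least 1 CPM), 56.8% had a log2 ratio above 0. HSP90AA1 and HSPA4L passed 1.5-fold with an interval that excluded 1, and 0 of the 10 were 1.5-fold lower. In the background, 13.6% of measured genes were called higher by this rule and 10.3% lower, so 2 of 10 is close to the background share. At a threshold of 25% above the control level, 7 of the 10 were called higher, beside 25.3% of measured genes and 21.3% of the 2065 protein-coding genes whose mean level reached 100 CPM. At 2-fold, 0 of the 10 were called, beside 4.86% of measured genes. The median log2 ratio of the 10 was 0.44, and that of all measured genes 0.09.

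**Figure D1:**
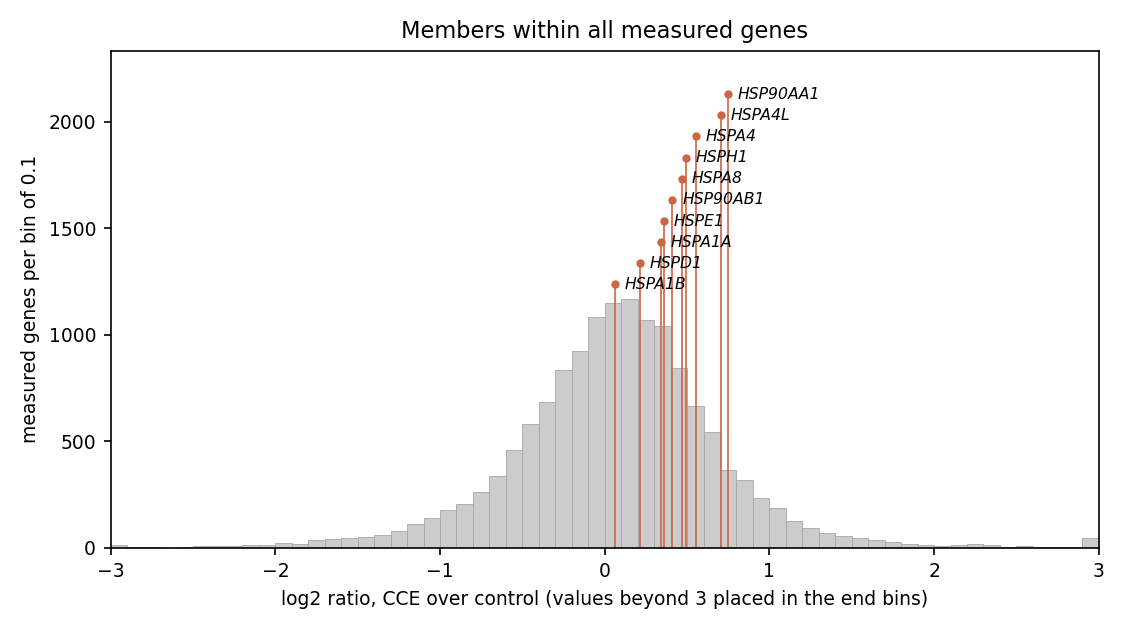
Distribution of the log2 ratio, CCE over control, over 14423 measured genes (grey bars, genes per bin of 0.1), with the 10 chaperone genes as labelled orange lines whose heights carry no value. The chaperone genes lie between 0.06 (HSPA1B) and 0.75 (HSP90AA1), all to the right of 0 and within the body of the distribution.

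The HSP90 pair differed in the size of its ratio. HSP90AA1, the gene of HSP90-alpha (ENSG00000080824, chr14:102547079-102606036, minus strand, GRCh37), had 12883 counts in control cells and 134065 with CCE. That is 2287 against 3843 CPM, 1.68-fold higher (interval 1.65 to 1.71). It ranked 27th by CPM in control cells and 14th with CCE, and 10.5% of measured genes had a larger log2 ratio. HSP90AB1, the gene of HSP90-beta (ENSG00000096384, chr6:44213903-44221625, plus strand), had 13046 and 107419 counts, or 2316 and 3079 CPM. Its ratio was 1.33-fold (1.31 to 1.35). The number of HSP90AA1 counts per HSP90AB1 count was 0.988 in control cells and 1.248 with CCE. These are counts not corrected for gene length, so they show the shift between the libraries and not which gene was more abundant. The ratio of those ratios was 1.26 (1.23 to 1.30, counting error only).

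Of the HSP70 genes, the constitutive form carried nearly all of the counts. HSPA8, the gene of HSC70 (ENSG00000109971, chr11:122928197-122933938, minus strand), had 13199 and 113195 counts, 2343 against 3245 CPM, a ratio of 1.38 (1.36 to 1.41). HSPA1B (ENSG00000204388, chr6:31795515-31798031, plus strand) had 300 and 1939 counts, 53.3 against 55.6 CPM, a ratio of 1.04 (0.924 to 1.18). HSPA1A (ENSG00000204389, chr6:31783320-31785723, plus strand) had 72 and 565 counts, 12.8 against 16.2 CPM, a ratio of 1.27 (0.990 to 1.64). The intervals of both stress-inducible genes included 1, so a difference was not detectable at this depth. Summed, the pair had 372 and 2504 counts, a ratio of 1.09 and a log2 ratio of 0.12 (-0.04 to 0.28). Each HSPA1B count stood beside 43.997 HSPA8 counts in control cells and 58.4 with CCE, a 1.33-fold difference (1.17 to 1.5004).

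The counts of HSPA1A and HSPA1B are uncertain, both one by one and summed. Of all 50-base windows of the HSPA1A canonical transcript, 75.1% also occurred in another annotated gene, HSPA1B alone holding 75.1%, and for HSPA1B 73.6% were shared. Reads that lie wholly within stretches shared by separate places in the genome, such as HSPA1A and HSPA1B, cannot be placed uniquely. The deposited counts list records with more than 1 alignment in a row of their own, apart from the genes. The summed pair, the count ratio of HSPA8 to HSPA1B and the levels per kilobase below may therefore lack such reads too. After this pair the share was largest for HSPE1, at 48.2%, the overlapping gene HSPE1-MOB4 alone holding 28.3%. Reads shared with a gene at the same place have a single position but can be ambiguous between genes. Records listed as ambiguous made up 1.59% of the control and 1.36% of the CCE records. The share of windows was 27.1% for HSPD1, and 16.8%, 19.1% and 19.7% for HSPA8, HSP90AA1 and HSP90AB1. For HSPA4L it was 7.6%, and for HSPA4 and HSPH1 0%. The part of shared stretches in the counts and levels of these genes was not tested.

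The 3 HSP110-type genes lay close together. HSPA4, which encodes APG-2 (ENSG00000170606, chr5:132387705-132442141, plus strand), had 1466 and 13337 counts, 260.2 against 382 CPM, a ratio of 1.47 (1.39 to 1.55). HSPH1, which encodes HSP105 (ENSG00000120694, chr13:31709110-31736525, minus strand), had 1033 and 9004 counts, 183 against 258 CPM, a ratio of 1.41 (1.32 to 1.503). HSPA4L, which encodes APG-1 (ENSG00000164070, chr4:128702976-128761888, plus strand), had 196 and 1980 counts, 34.8 against 56.8 CPM, a ratio of 1.63 (1.41 to 1.90). The 3 ratios spanned 1.41 to 1.63, and the count ratio of HSPA4L to HSPA4 differed between libraries by 1.11-fold with an interval that included 1 (0.9497 to 1.30). HSPA4L shares 4.61% of its 50-base windows with a long noncoding RNA gene on the opposite strand, ENSG00000261668, which had 14 and 92 counts.

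The mitochondrial chaperonin genes had smaller ratios. HSPD1 (ENSG00000144381, chr2:198351308-198381461, minus strand) had 4568 and 32799 counts, 811 against 940.2 CPM, a ratio of 1.16 (1.12 to 1.20). Its neighbour HSPE1 (ENSG00000115541, chr2:198364864-198368173, plus strand) had 843 and 6705 counts, 149.6 against 192 CPM, a ratio of 1.28 (1.20 to 1.38). Both genes are transcribed away from a shared region in opposite directions and their annotated exons overlap by 135 bases, 7.41% of the HSPE1 exons. HSPE1 also shares 192 exonic bases with the read-through gene HSPE1-MOB4, which is listed at 0 counts in both libraries. The part of these overlaps in the HSPE1 count was not tested. HSPE1 counts per HSPD1 count were 0.185 in control cells and 0.204 with CCE, a 1.11-fold difference (1.02 to 1.20).

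**Figure D2:**
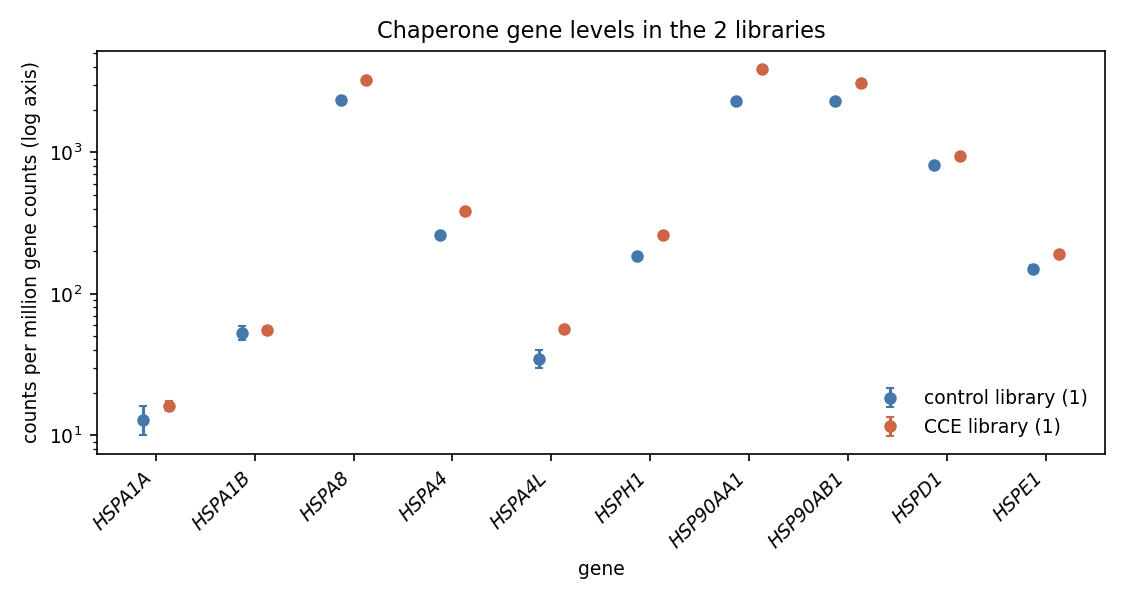
Level of each of the 10 genes in CPM (log axis) in the control library (blue) and the CCE library (orange), with exact 95% Poisson counting intervals. The CCE point lies above the control point for each gene, and the intervals of the 2 libraries overlap for HSPA1A and HSPA1B.

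The family as a whole took a larger share of the gene counts in the CCE library. The 10 genes held 0.845% of gene counts in control cells and 1.21% with CCE, a ratio of 1.43. HSP90AA1, HSP90AB1 and HSPA8 made up 82.2% of the family's counts in control cells and 84.2% with CCE. The family ratio is therefore mostly that of these 3 genes, which together were 1.46-fold higher by counts. In FPKM, HSPA8 (425.6 and 15.5) and HSP90AA1 (477 and 23.0) were lower in the CCE library and HSP90AB1 (688 and 789) higher.

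Levels between genes were compared per kilobase of annotated exon. In the control library the order was HSP90AB1 at 777 CPM per kb, HSPA8 at 483, HSP90AA1 at 449, HSPD1 at 106, HSPE1 at 82.1 and HSPA4 at 51.3. HSPH1 and HSPA1B followed at 21.9 and 21.2 with overlapping counting intervals, so their order is not resolved, and HSPA1A at 5.32 and HSPA4L at 3.04 were lowest. In the CCE library HSP90AA1 (754 CPM per kb) stood above HSPA8 (669) and below HSP90AB1 (1033). HSPH1 (30.8) then lay above HSPA1B (22.1). The order depends on the length used. Per kilobase of the canonical transcript, HSPA8 came first in both libraries (1035 and 1433 CPM per kb), followed by HSP90AB1 (906 and 1205) and HSP90AA1 (708 and 1191), and HSPH1 (34.97 and 49.2) was above HSPA1B (21.2 and 22.1) in both.

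Base composition moved with the ratio across the transcriptome. The median log2 ratio of measured protein-coding genes was 0.25 in the decile of lowest GC content and -0.16 in the decile of highest GC content. HSPA4L and HSPH1 fall in the lowest decile, HSPA4 and HSPD1 in the third, HSP90AA1 and HSPE1 in the fourth, HSPA8 and HSP90AB1 in the fifth, and HSPA1A and HSPA1B in the ninth. Relative to the median of its own decile, HSP90AA1 kept a log2 ratio of 0.61, HSPA4L had 0.46, HSPA4 0.37 and HSPA8 0.35. HSPD1 was reduced to 0.03, and HSPA1A and HSPA1B moved up to 0.39 and 0.11. By this measure HSP90AA1 alone of the 10 remained above 1.5-fold.

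**Figure D3:**
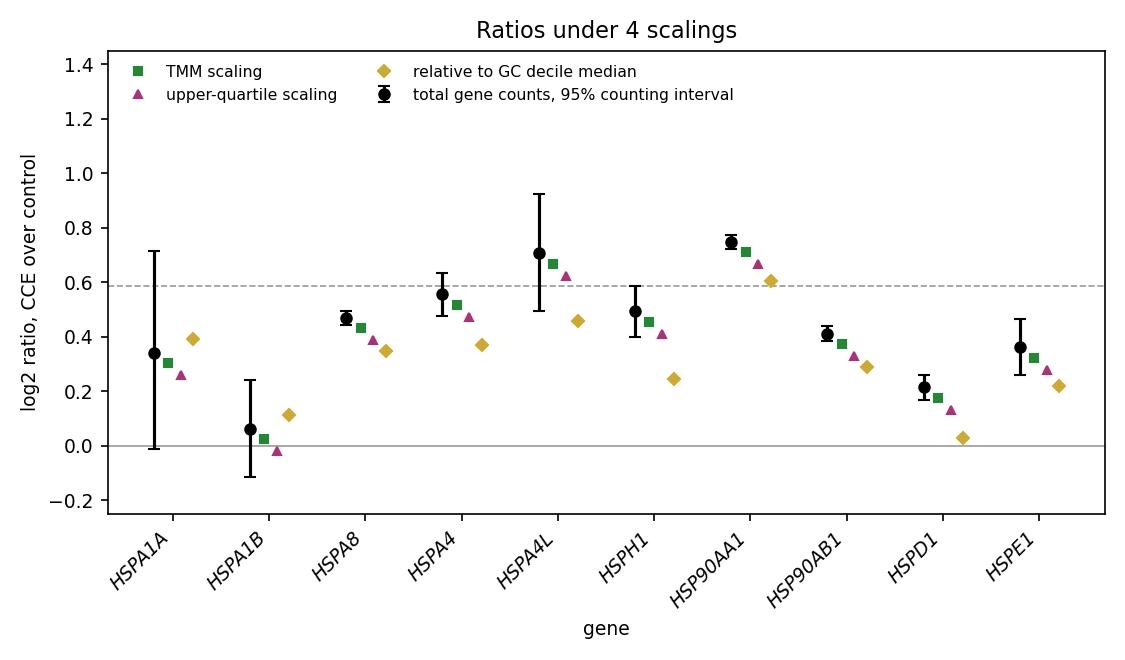
Log2 ratio, CCE over control, of each gene by total gene counts (black, with 95% counting interval), TMM scaling (green), upper-quartile scaling (purple) and relative to genes of the same GC decile (yellow). The dashed line marks 1.5-fold, and HSP90AA1 is above it under all 4, while HSPA1B is below 0 under upper-quartile scaling.

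The deposited FPKM values gave another picture for a part of the family. HSPA8 was listed at 425.6 FPKM in control cells and 15.5 with CCE, and HSP90AA1 at 477 and 23.0, where the same libraries held 113195 and 134065 CCE counts for them. The log2 ratios on the log2(FPKM + 1) scale were -4.69 and -4.32. HSP90AB1 had 688 and 789 FPKM, HSPD1 231 and 292, HSPA1B 26.2 and 30.1 and HSPA1A 6.68 and 8.27, each higher in the CCE library, as by counts. HSPA4 (71.1 and 71.7) and HSPH1 (44.8 and 44.4) were nearly level, and HSPE1 (467 and 438) and HSPA4L (2.65 and 1.73) were lower in the CCE library. The rows of these tables repeat gene IDs without transcript names. For HSPA8 the row that held 358 FPKM in the control held 3.71 in the CCE library, and no other HSPA8 row exceeded 4.72 there. The same pattern occurred beyond this family. Of 952 protein-coding genes with at least 1000 control counts, 93 (9.77%) had an FPKM log2 ratio more than 2 below that by counts and 29 more than 2 above it. What made the values differ was not tested.

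**Figure D4:**
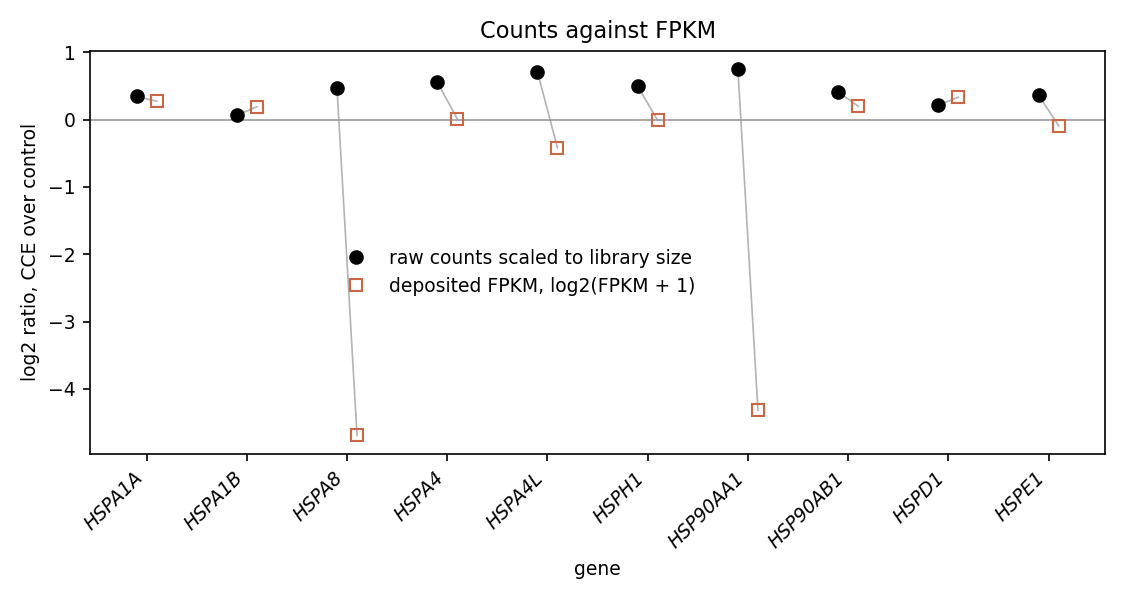
Log2 ratio, CCE over control, by raw counts scaled to library size (black circles) and by the authors' FPKM on the log2(FPKM + 1) scale (orange squares), joined for each gene. The FPKM value lies below the count value by 5.16 for HSPA8 and by 5.06 for HSP90AA1, and both measures lie within 1.13 of each other for the other genes.

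Near-identical processed pseudogenes were listed with counts of their own. HSP90AA2P had 141 counts in control cells and 2431 with CCE, a log2 ratio of 1.48 (1.23 to 1.73), above the 0.75 of HSP90AA1. HSP90AB3P had 155 and 1868 counts, a log2 ratio of 0.96 (0.72 to 1.21), and HSP90AB2P 5 and 139, 2.17 (0.91 to 3.81), against 0.41 for HSP90AB1. These 3 pseudogenes had larger ratios than their parent genes. HSP90AA3P (4 and 37 counts, 0.58, -0.90 to 2.53) and HSP90AA4P (6 and 34 counts, -0.13, -1.40 to 1.42), named after their values were seen, had lower values with wide intervals. HSPD1P1 had 126 and 955 counts (0.29, 0.02 to 0.57), HSPE1P2 55 and 358 (0.07, -0.34 to 0.51), and HSPA8P7 1 and 127 (4.36, 1.85 to 9.67). Pseudogenes amounted to 1.17% of the HSP90AA1 counts in control cells and 1.87% with CCE, and to 7.71% and 7.13% for HSPE1. Whether these counts are transcripts of the pseudogenes or reads of the parent genes cannot be told apart in the tables. Adding them to the parent moved the log2 ratios of the 10 genes by at most 0.0099.

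The other measured HSP70 genes had ratios above 1, whereas the 2 other HSP90 genes had a median log2 ratio of 0.09, as did all measured genes. Counts in this and the following lists stand beside 56.8% of all measured genes above 0. Over all measured genes, 13.6% were called higher and 10.3% lower. Of 10 further HSP70 genes, 7 were measured and all 7 had a log2 ratio above 0. Their median was 0.53, or 0.49 with a minimum mean of 5 CPM. Of the 7, 1 was called 1.5-fold higher, close to the background share. The 3 genes not measured averaged under 1 CPM. Of these, 2, singled out once their values were known, lay below 0: HSPA12B with 8 and 8 counts (-2.63, -4.24 to -1.02) and HSPA2 with 8 and 18 (-1.46, -2.73 to -0.05). The gene called higher was HSPA13, a microsomal HSP70 (83.6 against 129 CPM, log2 ratio 0.63, 0.49 to 0.77). HSPA5, the endoplasmic reticulum chaperone BiP and the most abundant of them, had 812 and 946 CPM (0.22, 0.17 to 0.26). In FPKM, HSPA5 was lower in the CCE library (263 and 180) and HSPA13 higher (18.1 and 24.7). HSPA12A (15 and 146 counts) and HSPA1L (5 and 60) had intervals that included 0, and HSPA1L, at 0.888 and 1.72 CPM, reached the minimum level only through the CCE library. The strictly stress-inducible gene HSPA6, named here after its values were seen, had 3 and 27 counts (0.54, -1.16 to 2.90) and was also under the minimum level. The endoplasmic reticulum HSP90 gene HSP90B1 had 825 and 937 CPM (0.18, 0.14 to 0.23), and its mitochondrial counterpart TRAP1 76.5 and 76.5 CPM (log2 interval -0.15 to 0.15).

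The cytosolic chaperonin TRiC, which folds actin and tubulin, had small ratios. All 9 of its subunit genes had a log2 ratio above 0 and the median was 0.20. CCT5 (591 and 628 CPM) had 0.09, CCT3 (532 and 625 CPM) 0.23 and CCT6A (472 and 629 CPM) 0.41. In FPKM, CCT3 (187 and 32.4) and CCT5 (252 and 225) were lower in the CCE library and CCT6A (160 and 168) higher. The 1 subunit gene called higher, CCT6B, a testis-enriched form, had 3 and 73 counts (1.97, 0.37 to 4.29). It reached the minimum level only through the CCE library (0.533 and 2.09 CPM), so its call is no support for a change of TRiC. Of the 6 genes of prefoldin, which hands clients to TRiC, 3 were above 0 and 1 was called higher, PFDN6 at 28.2 and 43.6 CPM (0.63, 0.39 to 0.87), with a median of 0.08. PFDN5 and PFDN2 had 0.38 and 0.28 by counts. In FPKM both were lower in the CCE library, PFDN5 at 141 and 4.32 and PFDN2 at 82.4 and 62.7. PFDN6 was nearly level (29.7 and 29.2 FPKM).

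Cochaperones were spread on both sides of 0. Of 17 HSP70 cochaperone genes 11 were above 0, the median was 0.11, and 1 was called higher. DNAJB4, a J-domain protein that stimulates the HSP70 ATPase, had 33.4 and 69.97 CPM (1.07, 0.85 to 1.29). The nucleotide exchange factor genes BAG5 and BAG4 had 0.53 (0.35 to 0.72) and 0.37 (0.01 to 0.76) by counts. DNAJA1, the most abundant, had 0.13 (0.07 to 0.19). In FPKM, BAG5 was at 15.3 and 1.90, the opposite direction. BAG4 was listed at 0 and 3.94 FPKM, DNAJA1 at 147 and 137, and DNAJB4 at 9.05 and 13.6. Of 14 HSP90 cochaperone genes 11 were above 0, the median was 0.29, and 2 were called higher. CHORDC1, which binds the HSP90 amino-terminal domain, had 45.1 and 78.7 CPM (0.80, 0.62 to 1.00). TTC4, a tetratricopeptide cochaperone, had 5 and 141 counts (2.19, 0.93 to 3.83), and it too reached the minimum level only through the CCE library (0.888 and 4.04 CPM). Its FPKM values were 12.8 and 19.0, a smaller ratio than that by counts. PPID, a cyclophilin, had 0.50 (0.29 to 0.72), and PTGES3, the p23 gene and the most abundant, 0.03 (-0.04 to 0.10). In FPKM, PPID was lower in the CCE library (21.5 and 9.42). CHORDC1 was at 15.6 and 15.3 FPKM, and PTGES3 at 144 and 128.

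Among small heat shock proteins and heat shock factors, 0 genes were called higher and 1 in each group was called lower. HSPB1, the HSP27 gene, had 1190 and 4877 counts, 211 against 139.8 CPM, a log2 ratio of -0.60 (-0.69 to -0.50), and was called lower. HSPB8 had 26 and 176 counts (0.13, -0.47 to 0.78), these 2 being the measured ones of 9 matched. CRYAB, CRYAA, HSPB2, HSPB3 and HSPB9 had 0 counts in both libraries, which allows up to 0.533 CPM in control cells and 0.0860 CPM with CCE. HSF1 had 124 and 103 CPM (-0.26, -0.38 to -0.14), HSF4 33 and 130 counts (-0.65, -1.21 to -0.05), and the HSF1-binding protein gene HSBP1 116 CPM in both (-0.12 to 0.12). Of 5 measured genes in this group 1 was above 0, HSF2BP (11 and 72 counts, 0.08), and the median was -0.07.

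HSF1 targets outside the 10 genes lay on both sides of 0. Of 19 listed targets 17 were measured and 10 had a log2 ratio above 0, with a median of 0.11 beside 0.09 for all measured genes. DNAJB4 and CHORDC1 were called higher and HSPB1 lower, all 3 also belonging to lists above. UBB, a polyubiquitin gene and the most abundant of these targets, had 1014 and 906 CPM (-0.16, -0.20 to -0.12). DNAJB1 and BAG3, named after their values were seen as textbook HSF1 targets, had 808 and 5398 counts (0.11, 0.0026 to 0.22) and 789 and 4511 counts (-0.12, -0.22 to -0.0042). The median of the 10 chaperone genes was 0.44. Targets of the NRF2 oxidative stress response served as a scale for ratios in these libraries. Of these, 6 of 7 were called higher, with a median of 1.07, and HMOX1, the heme oxygenase 1 gene, was 10.3-fold higher. They were chosen with earlier results of these data known, so their high ratios are no independent control for the chaperone genes.

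**Figure D5:**
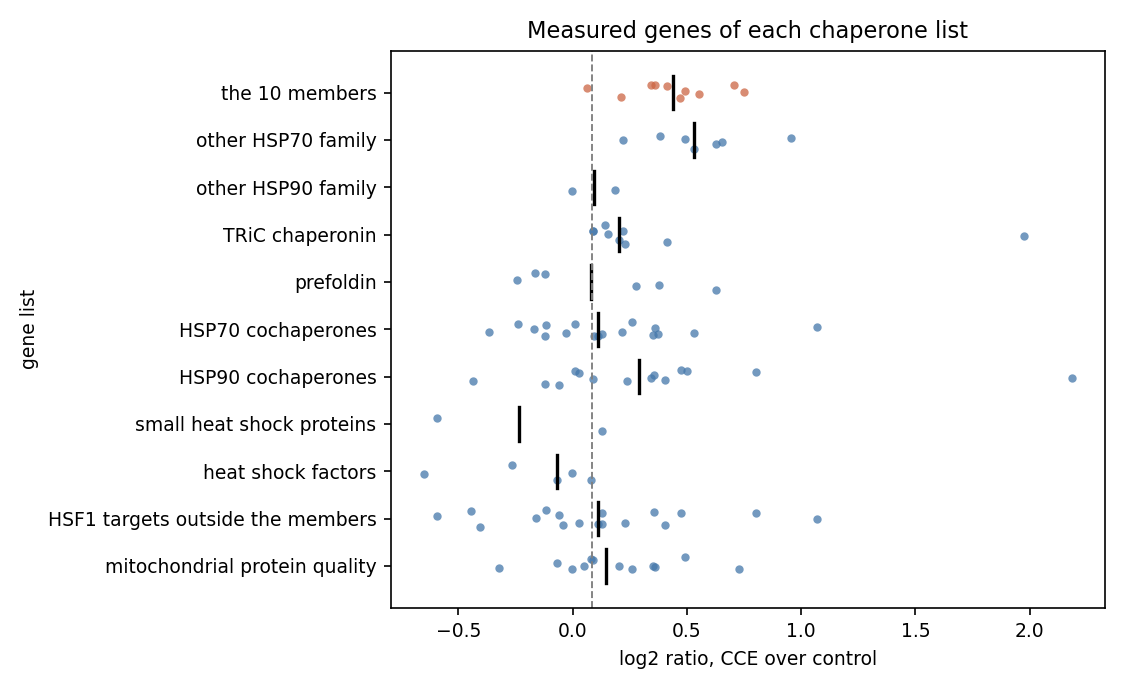
Log2 ratio, CCE over control, of each measured gene (points, vertical scatter carries no value) in the 10 chaperone genes (orange) and in related lists (blue), with the list median (black bar) and the median of all measured genes (dashed line, 0.09). Medians run from -0.23 for small heat shock proteins to 0.53 for the other HSP70 genes, and some genes stand in more than 1 list.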

How the data were processed

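The authors deposited raw counts per Ensembl gene, and FPKM values, for each of the 2 libraries. The tool and builds named, per the submitters' processing notes, are HISAT2, hg19 and GRCh37, with no role given. The sources used here do not give the counting program, its strand setting or the origin of the FPKM values. Each file of counts has 5 rows that name no gene. They held 62.9% of the control and 66.8% of the CCE records and were left out of library sizes.

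Symbols, coordinates and exon lengths came from GENCODE release 44 lifted to GRCh37, which holds 55665 of the 63677 IDs. Promoter sequences came from RefSeq and were placed on GRCh37 by exact match. Counts were divided by total gene counts, and ratios were taken with no pseudocount. Intervals are exact Clopper-Pearson intervals (scipy 1.17.1), which cover counting error only since PCR copies are not independent molecules. Genes averaging 1 CPM or more were taken as measured and called past 1.5-fold where the interval excluded 1. A count of 0 allows up to 3 counts. FPKM rows were summed per gene, and the depth behind them is unknown. TMM and upper-quartile factors came from edgeR 4.0.16 and size factors from DESeq2 1.42.0, used for scaling only. The interval procedure was run on simulated Poisson counts, the same counting-error model that the interval assumes. That run does not cover PCR copies or differences between replicate libraries. Other alternatives were the mitochondrial counts left out, pseudogenes added, GC deciles, and other folds and minimum levels. Canonical transcript lengths were added after seeing the data.

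The members and lists were chosen with earlier results of these data known. Of the 104 other listed genes 103 matched, and 2 further genes of the lists are not reported here and were left out of their counts, sums and medians. Named were all 10 members, the 3 measured genes of each other list with the largest absolute log2 ratio and its most abundant gene, and up to 3 pseudogenes per member with at least 100 counts over both libraries.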

Additional observations from a re-analysis of the deposited data

How the results depend on the processing

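All 10 genes had a log2 ratio above 0 under TMM scaling, DESeq2 size factors, library size without mitochondrially encoded genes, added pseudogene counts and the GC decile median. Under upper-quartile scaling HSPA1B was at -0.021 and the other 9 were above 0. By FPKM, with pseudocounts of 1 and 0.1, 5 of the 10 were below 0: HSPA8 (-4.69 and -4.77), HSP90AA1 (-4.32 and -4.37), HSPA4L (-0.42 and -0.59), HSPE1 (-0.0941 and -0.0943) and HSPH1 (-0.0125 and -0.0127). The median of the 10 was then -0.00043 and -0.00048, 0 were more than 1.5-fold higher, and 2, HSPA8 and HSP90AA1, were more than 1.5-fold lower. Relative to the GC decile the median was 0.32 and 1 gene was more than 1.5-fold higher. A threshold of 25% above the control level gave 7 genes and a fold of 2 gave 0. For the other lists, FPKM medians (pseudocount 1) were 0.039 for other HSP70 genes, 0.020 for TRiC, 0.13 for HSP90 cochaperones, -0.40 for prefoldin, -0.10 for HSP70 cochaperones and -0.16 for HSF1 targets. By FPKM the number more than 1.5-fold higher was 0 for other HSP70 genes, 0 for prefoldin and 0 for HSF1 targets, and more than 1.5-fold lower were 0, 2 and 4 of them. For TRiC 1 was higher and 2 were lower, for HSP70 cochaperones 1 and 4, and for HSP90 cochaperones 3 and 1. For heat shock factors the numbers were 0 and 1, and for mitochondrial protein quality 1 and 1. For small heat shock genes both were 0, so HSPB1 (193 and 142 FPKM) was not past 1.5-fold by FPKM. With a minimum mean of 5 CPM the number higher was 0 for TRiC and 1 for HSP90 cochaperones, fewer genes being tested, and HSPB1 alone of the small heat shock genes was left (-0.60). The cause of the FPKM differences was not tested. The control depth limits HSPA1A, HSPA1B and genes with few control counts. No paired analysis was possible because each group has 1 library.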

Other observations

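Genes of mitochondrial protein quality control, a list that touches HSPD1 and HSPE1 by location, had small ratios. Of 12 measured genes 9 had a log2 ratio above 0, beside 56.8% of all measured genes, and the median was 0.15. Of the 12, 1 was called 1.5-fold higher, beside 13.6% of all measured genes. CLPX, the unfoldase subunit of the ClpXP protease, had 198 counts in control cells and 2032 with CCE, a log2 ratio of 0.73 (0.52 to 0.95), but 9.07 and 1.42 FPKM. HSPA9, the mitochondrial HSP70 mortalin, had 522 and 734 CPM (0.49, 0.44 to 0.55), beside 0.21 for HSPD1 and 0.36 for HSPE1. GRPEL2, a nucleotide exchange factor of mortalin, had 28.8 and 36.9 CPM (0.36, 0.12 to 0.61). TRAP1, which belongs to this list too, was level.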
